A study of Rattus norvegicus with 9 samples.

Results

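A gel carrying magnesium and alendronate (Mg-ALN gel) was compared with gel alone (Gel) by RNA sequencing of the middle of rat femoral fractures, over all genes. The comparison took 6 of the 9 libraries of the study, 3 for each gel. The other 3 libraries, from fractures given gel with alendronate alone (ALN gel), were left out of the contrast. They entered the estimate of spread, the choice of genes tested and the scaling of counts. The magnesium and alendronate were combined as a metal-organic framework, a solid in which metal ions are linked by organic molecules, and the question of the study concerns fibrosis, Sost and the TGF-β pathway. The title places the work in osteoporotic fracture, while the sample labels give no strain, age, sex, time after fracture or way of inducing bone loss. The labels number the libraries of a group but do not say that they came from separate animals, so each p-value measures the spread between these libraries. Mg-ALN gel differs from Gel in magnesium, in alendronate and in the particles that hold them, and the effects of these cannot be told apart in this contrast.

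Alendronate is a bisphosphonate, a drug that binds to bone mineral and is taken up by osteoclasts, the cells that resorb bone. Inside cells it inhibits farnesyl diphosphate synthase (Fdps), an enzyme of the mevalonate pathway, which makes cholesterol and the lipid anchors that are attached to small GTPases. When sterols run low in a cell, the SREBP transcription factors raise the genes of this pathway. Magnesium enters cells through channels such as Trpm7, and sclerostin, the product of Sost, is a Wnt inhibitor secreted by osteocytes, the cells buried in bone.

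The 6 libraries held 13388689 to 18763270 counts. All values below are CPM, read counts scaled to a common depth by TMM, in the order of replicates 1, 2 and 3 of each group, and each log2 fold change is Mg-ALN gel minus Gel with its standard error (n = 3 libraries a group). Defining genes of bone were present in every library, among them Ibsp, bone sialoprotein, at 3359, 1446 and 404 CPM in Gel and 778, 100.1 and 1740 in Mg-ALN gel. Some libraries stood apart from the rest of their group. The first principal component, with 36.7% of the variance of the 6 libraries, placed Mg-ALN gel 1 at 154 and the others between −81.4 and −12.4. Gel 3 had 1.33% of its counts in skeletal muscle genes, against at most 0.0253% in the other 5. Gel 1 had the highest osteoblast gene levels, and Il1b, an inflammatory cytokine, stood at 7.05 CPM there against 478 and 498 in the other Gel libraries. The share of counts in mitochondrially encoded genes was 17.5%, 5.40% and 4.16% for Gel and 11.2%, 10.6% and 31.6% for Mg-ALN gel (exact permutation test, two-sided p = 0.4, where the smallest p possible is 0.1).

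Of 15460 genes tested with edgeR's quasi-likelihood test, 0 (0.0%) had an adjusted p under 0.05, and the lowest adjusted p was 0.53. An unadjusted p under 0.05 was found for 1439 genes (9.31%), of which 839 were higher (5.43% of the genes tested) and 600 lower (3.88%) in Mg-ALN gel. At that p the number of higher genes was 292 without Gel 3, 489 without Mg-ALN gel 1 and 549 without Gel 2, each left out on its own. The groups did not overlap for 2832 genes (18.3%), 1509 higher (9.76%) and 1323 lower (8.56%). DESeq2, run as an alternative, called 51 of 15366 genes (0.332%), of which 24 were higher (0.156%) and 27 were lower (0.176%). By limma-voom with quality weights, 0 genes (0.0%) were called. Of the 51, 47 did not overlap between the groups and 50 had an unadjusted edgeR p under 0.05. The 4 that overlapped were Fbxo40, Cnmd, Col2a1 and Clec3a. Cnmd, Col2a1 and Clec3a are genes of cartilage, Fbxo40 is a muscle gene, and in all 4 the highest of the 6 libraries was Gel 3. No gene named below passed edgeR over all genes, so "higher" and "lower" describe values, and a call by DESeq2 is named as such.

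The direction of the difference went with gene length. Genes higher at an unadjusted p under 0.05 had a median length of 1146 bases and genes lower at that p one of 4090 bases, against 2240 bases for all genes tested. In 4 bins of nearly equal size, from the shortest genes to the longest, the median log2 fold change was 0.34, 0.12, −0.09 and −0.27, and across genes, which are not independent replicates, Spearman's correlation between length and log2 fold change was −0.348. The mean level of the shortest bin less that of the longest, in each library relative to the mean of all 9, was −0.35, −0.12 and −0.42 on the log2 scale in Gel and 0.68, −0.07 and 0.01 in Mg-ALN gel. Every Mg-ALN gel library lay above every Gel library, and Mg-ALN gel 1 stood far above the rest. After the length trend was removed, an alternative chosen after seeing the data, 510 genes were higher and 447 lower at an unadjusted p under 0.05. The part of RNA quality or library making in this trend was not tested.

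**Figure D1:**
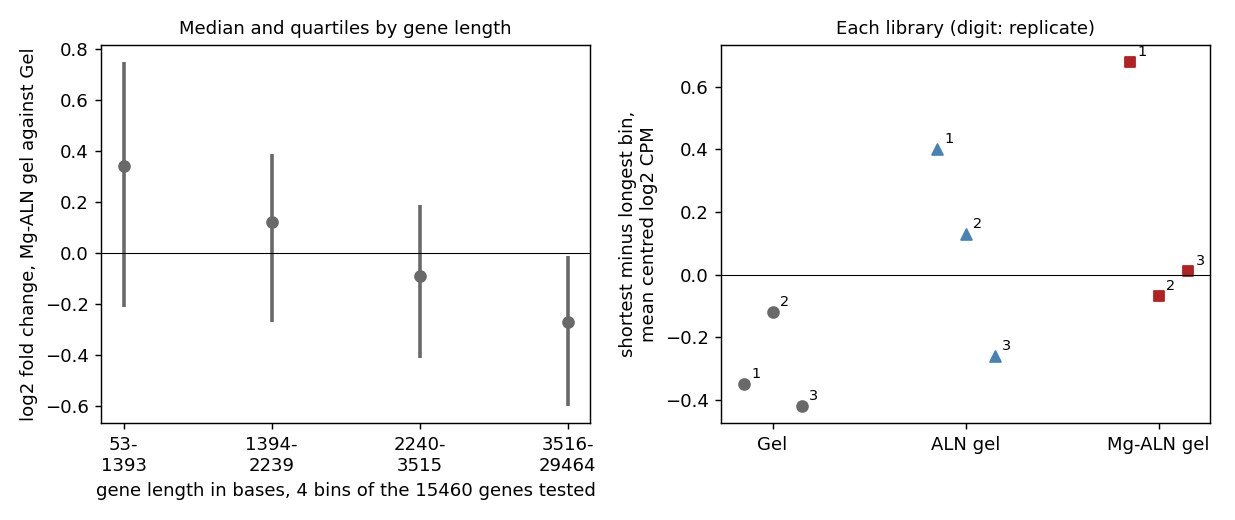
Left, the median log2 fold change (Mg-ALN gel minus Gel, with quartiles) of the genes in each of 4 bins of length, falling from 0.34 in the shortest to −0.27 in the longest. Right, the mean centred log2 CPM of the shortest less the longest bin in each of the 9 libraries, highest at 0.68 in Mg-ALN gel 1.

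Several mevalonate and sterol synthesis genes went against this trend, with Idi1, Fdps, Hmgcs1 and Cyp51 higher at lengths of 2811, 3011, 3220 and 3341 bases. Start site windows of 3 of them are shown, those of the drug's target Fdps and of 2 enzymes before it. Of the 21 genes of the list, 16 had a window in RefSeq's GRCr8 set, which runs from 250 bases before to 50 after the gene's start. The word CCAAT, read on both strands and bound by the factor NF-Y beside SREBP in several sterol genes, occurred in 13 of the 16 windows (81.2%) and in 12549 of all 33469 windows (37.5%). The word was in the windows of Mvk, Ggps1 and Lss, which were below 0, but not in that of Acat2, also below 0. It was absent as well from those of Cyp51 and Dhcr7, which were higher. So few windows lacked the word that they cannot show whether it goes with direction. ATCACNCCA, the first 9 letters of the sterol regulatory element, searched on both strands, occurred in 0 of the 16 and in 257 of all windows (0.768%), which says only that these letters are not in these windows. The printed windows are those of Idi1 (chr17:66547475-66547774, minus strand), Hmgcs1 (chr2:53382054-53382353, plus strand) and Fdps (chr2:176804767-176805066, minus strand), each 5′ to 3′ along the gene, with CCAAT or its reverse complement ATTGG in capitals.
Idi1: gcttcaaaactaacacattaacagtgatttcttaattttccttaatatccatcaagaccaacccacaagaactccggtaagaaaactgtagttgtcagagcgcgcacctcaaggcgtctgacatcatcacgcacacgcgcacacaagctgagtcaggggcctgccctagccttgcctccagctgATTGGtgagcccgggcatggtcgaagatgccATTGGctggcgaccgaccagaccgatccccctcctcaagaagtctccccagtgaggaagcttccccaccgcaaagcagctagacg
Hmgcs1: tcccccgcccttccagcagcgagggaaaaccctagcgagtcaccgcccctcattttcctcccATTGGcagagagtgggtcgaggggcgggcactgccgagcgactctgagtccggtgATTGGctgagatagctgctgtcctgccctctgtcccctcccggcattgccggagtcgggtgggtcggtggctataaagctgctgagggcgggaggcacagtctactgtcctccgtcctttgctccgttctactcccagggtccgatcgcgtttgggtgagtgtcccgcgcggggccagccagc
Fdps: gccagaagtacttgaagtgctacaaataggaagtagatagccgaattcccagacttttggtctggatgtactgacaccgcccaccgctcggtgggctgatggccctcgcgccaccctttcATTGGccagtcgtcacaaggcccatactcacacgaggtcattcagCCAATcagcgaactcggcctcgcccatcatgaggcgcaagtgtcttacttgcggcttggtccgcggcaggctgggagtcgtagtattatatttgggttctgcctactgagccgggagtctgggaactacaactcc
In Idi1 both copies read ATTGG, starting 66 and 35 bases before the start site, in Hmgcs1 both read ATTGG at 188 and 133 bases before it, and in Fdps 1 copy of each orientation starts 130 and 85 bases before it. A match is a description of the letters and not a mapped binding site.

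Sterol synthesis genes had a log2 fold change above 0 for 17 of 21 members, all of which were tested, with a median log2 fold change of 0.39 against −0.03 for all genes (of all genes, 47.7% were above 0 and 52.2% below). Of the 21, 8 were higher and 0 lower at an unadjusted edgeR p under 0.05 (of all genes, 5.43% and 3.88%), and 9 were higher without overlap (9.76% of all genes). Idi1, the isomerase that makes the substrate of Fdps, had 10.7, 12.8 and 12.1 CPM in Gel and 21.3, 30.1 and 25.5 in Mg-ALN gel. Its log2 fold change was 1.11 (SE 0.22), with a DESeq2 adjusted p of 0.00694 and an edgeR adjusted p of 0.53, and each Mg-ALN gel library lay well above each Gel library. Hmgcs1, a synthase early in the pathway, had 21.1, 24.99 and 32.1 CPM in Gel and 38.0, 49.9 and 45.0 in Mg-ALN gel, a log2 fold change of 0.77 (SE 0.22). Fdps, the drug's target, had 43.4, 44.9 and 43.6 CPM in Gel and 74.4, 76.8 and 51.2 in Mg-ALN gel, a log2 fold change of 0.62 (SE 0.20). The Gel libraries of Fdps lay close together and Mg-ALN gel 3 lay nearest to them.

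In the sterol branch after Fdps, 5 enzymes were higher without overlap. Cyp51, which removes a methyl group from lanosterol, had 38.0, 36.3 and 43.1 CPM in Gel and 60.2, 60.2 and 65.7 in Mg-ALN gel, a log2 fold change of 0.67 (SE 0.19). Msmo1, the next demethylation enzyme, had a log2 fold change of 0.71 (SE 0.23), Dhcr7, which makes cholesterol in the last step of one route, 0.79 (SE 0.25), and Fdft1, which makes squalene, 0.53 (SE 0.20). Sqle, which oxidises squalene, was the fifth, at 15.9, 23.0 and 19.9 CPM in Gel and 24.0, 25.1 and 23.7 in Mg-ALN gel. Mvd, which acts before Idi1, did not overlap either (0.66, SE 0.29). The 4 members below 0 were Acat2, Mvk, Ggps1, which makes the longer lipid anchor, and Lss, which closes the sterol rings and overlapped at 7.97, 12.5 and 16.2 CPM in Gel and 7.33, 11.6 and 7.75 in Mg-ALN gel. Summed over the list, the level was 342, 366 and 392 CPM in Gel and 492, 548 and 486 in Mg-ALN gel, and it was 577, 672 and 562 in ALN gel, a comparison with Gel that shares its control libraries. Sums without overlap were not particular to this list. The sum was also higher for prenylation enzymes (225 to 258 CPM in Gel, 267 to 284 in Mg-ALN gel) and cytosolic ribosomal proteins. It was lower for fibrillar and fibrosis-associated collagens (71730 to 114400 CPM in Gel, 55730 to 68110 in Mg-ALN gel). Sums were lower as well for TGF-β ligands, receptors and latency proteins, Wnt receptors and β-catenin targets, and cartilage, magnesium transporter and semaphorin genes. A sum rests mostly on abundant members. The median log2 fold change went the other way for the prenylation list (−0.17) and the collagen list (0.25). The median of the sterol list lay between 0.32 and 0.50 when any 1 library was left out, and it was 0.46 after the length trend was removed. With Mg-ALN gel 1 and Gel 3 both left out it was 0.48, with 6 members higher at an unadjusted p under 0.05.

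**Figure D2:**
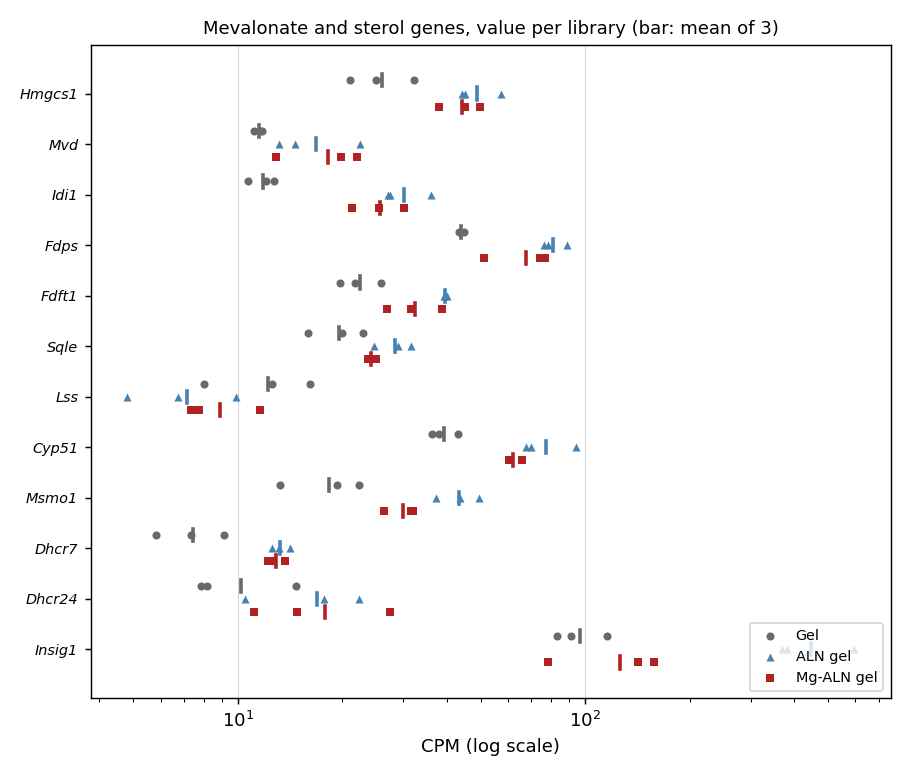
CPM (log axis) of 12 sterol pathway genes in each library of Gel, ALN gel and Mg-ALN gel. The groups Gel and Mg-ALN gel do not overlap for Idi1, Hmgcs1, Fdps and Cyp51, and Insig1 stands highest in ALN gel.

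Genes that sense, take up and export sterols did not share this direction, with 6 of 15 tested members above 0, a median of −0.04 and 1 further member below the count filter. Insig1, a brake on SREBP processing, had 91.3, 83.1 and 116 CPM in Gel and 78.2, 142 and 158 in Mg-ALN gel, so the groups overlapped (log2 fold change 0.38, SE 0.32). In ALN gel it stood at 381, 595 and 369 CPM. The prenylation enzymes, which attach the pathway's lipid anchors to proteins, were divided, with 3 of 9 above 0 and a median of −0.17. Rce1, the protease that trims prenylated proteins, had a log2 fold change of 0.63 (SE 0.23) and Fnta, a subunit shared by farnesyl and geranylgeranyl transferases, 0.40 (SE 0.18). Pggt1b, the geranylgeranyl transferase subunit that pairs with Fnta, had 16.9, 17.6 and 15.4 CPM in Gel and 10.6, 12.8 and 10.8 in Mg-ALN gel (−0.55, SE 0.23). The groups did not overlap in any of these 3 enzymes, so the 2 subunits of one transferase lay on opposite sides.

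The gene with the smallest edgeR p on the higher side was Egfl7 (chromosome 3, 4034921 to 4043936 in the deposited annotation), a secreted protein of endothelial cells and the host gene of a vascular microRNA. It had 49.0, 47.6 and 48.0 CPM in Gel and 114, 122 and 106 in Mg-ALN gel. Within each group the 3 values lay close together and the groups were far apart, with a log2 fold change of 1.24 (SE 0.20), an unadjusted edgeR p of 0.000184 and a DESeq2 adjusted p of 8.05e-05. Across the libraries left out in turn the log2 fold change was 1.17 to 1.29, and it was 1.04 after the length trend was removed. Fam167b, a gene of little known function, had 13.6, 18.4 and 13.1 CPM in Gel and 35.3, 48.0 and 34.2 in Mg-ALN gel (1.38, SE 0.26). Vamp5, a membrane fusion protein, had 8.47, 9.76 and 15.5 CPM in Gel and 41.6, 31.0 and 27.5 in Mg-ALN gel (1.57, SE 0.32). S100a10, the partner of annexin A2 at the cell surface, had 205, 299 and 229 CPM in Gel and 740, 529 and 458 in Mg-ALN gel (1.24, SE 0.28). In each of the 3, as in Egfl7, the lowest Mg-ALN gel library exceeded the highest Gel library, which the choice of genes required.

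Of 6 other genes named on the higher side, all but Dph3 are shorter than the median gene. They were Nxt1, a cofactor of mRNA export (log2 fold change 1.28), Mrpl14, a mitochondrial ribosomal protein (1.14), Pfdn4, a prefoldin subunit (0.99), Dph3, which serves the modification of elongation factor 2 (0.93), Dgcr6 (0.82) and RGD1563365 (1.08). DESeq2 called each of these 6 genes, and also Egfl7, Fam167b, Vamp5, S100a10 and Idi1. After the length trend was removed, Pfdn4 stood at 0.58, Mrpl14 at 0.74 and Vamp5 at 1.08. Dph3 and Idi1, the longer genes of the set, stood at 1.08 and 1.19.

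**Figure D3:**
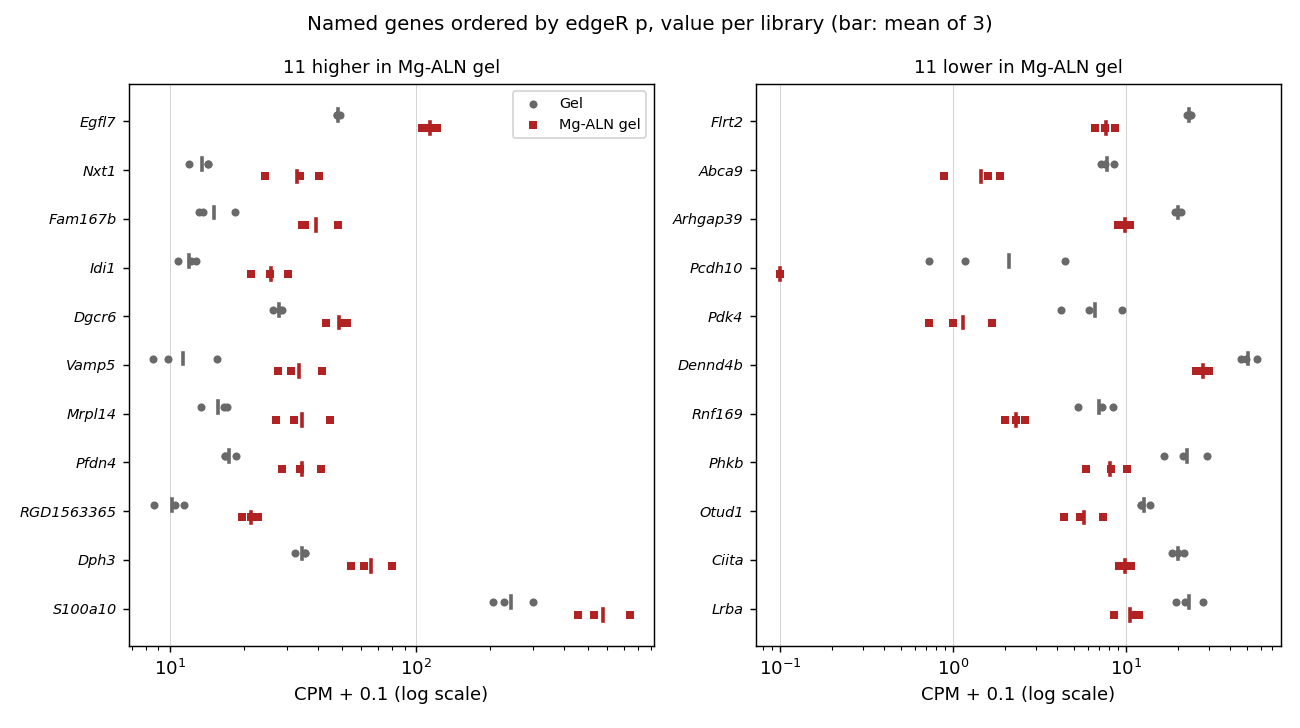
CPM + 0.1 (log axis) in each of the 6 libraries for 11 higher and 11 lower protein-coding genes among those with the smallest edgeR p and no overlap, with a bar at the mean of each group. The 3 libraries of Gel and of Mg-ALN gel form separate groups in every gene, as the choice of genes required.

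On the lower side the smallest p belonged to Flrt2 (chromosome 6, 119519714 to 119609296), a membrane protein of mesenchymal cells that binds Unc5 receptors and latrophilins. It had 23.5, 23.2 and 22.4 CPM in Gel and 7.41, 8.58 and 6.54 in Mg-ALN gel. Both groups were tight and apart, with a log2 fold change of −1.62 (SE 0.29), a DESeq2 adjusted p of 0.000414 and an edgeR adjusted p of 0.53. The log2 fold change was −1.74 to −1.53 when any 1 library was left out. Abca9, a lipid transporter family member, had 7.47, 7.11 and 8.46 CPM in Gel and 0.788, 1.49 and 1.78 in Mg-ALN gel (−2.49, SE 0.49). Pdk4, a mitochondrial kinase that inhibits pyruvate dehydrogenase, had 4.13, 9.42 and 6.02 CPM in Gel and 0.631, 0.893 and 1.59 in Mg-ALN gel (−2.64, SE 0.56). The highest Mg-ALN gel library of each, as of Flrt2, lay below the lowest Gel library, which the choice of genes required.

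Pcdh10, a protocadherin of cell adhesion, had 61, 19 and 10 counts in Gel and 0, 0 and 0 in Mg-ALN gel, with a DESeq2 adjusted p of 0.00254, and its Gel level rested largely on Gel 1. Ciita, the master regulator of MHC class II genes, had 18.2, 21.5 and 19.9 CPM in Gel and 9.77, 8.99 and 10.5 in Mg-ALN gel (log2 fold change −1.02, SE 0.24). Arhgap39, a GTPase-activating protein, had 20.6, 19.9 and 19.0 CPM in Gel and 10.4, 8.93 and 9.85 in Mg-ALN gel (−1.03, SE 0.21). Further lower genes were Rnf169 (−1.64), a ubiquitin-binding protein of the DNA damage response, Phkb (−1.48), a phosphorylase kinase subunit, Otud1 (−1.17), a deubiquitinase, Lrba (−1.13), which protects CTLA-4 from degradation, and Dennd4b (−0.87), a Rab exchange factor. DESeq2 called each of these lower genes as well. After the length trend was removed, Lrba stood at −0.61 and Ciita at −0.69.

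Endothelial genes, which line the vessels that invade a fracture, were above 0 for 12 of 12 members tested (14 were matched, and 2 lay below the count filter), with a median log2 fold change of 0.58. Of the 12, 2 were higher at an unadjusted p under 0.05 (5.43% of all genes) and 4 were higher without overlap (9.76% of all genes). Emcn, the sialomucin of sinusoidal and bone vessel endothelium, had 52.1, 37.2 and 36.0 CPM in Gel and 61.7, 96.7 and 63.3 in Mg-ALN gel (0.82, SE 0.27). Tek, the angiopoietin receptor, had 75.5, 55.1 and 74.9 CPM in Gel and 80.7, 116 and 102 in Mg-ALN gel (0.54, SE 0.27), and Esam, a junction molecule, had 55.9, 81.8 and 70.0 CPM in Gel and 96.2, 153 and 89.9 in Mg-ALN gel (0.71, SE 0.37). Mg-ALN gel 2 was the highest library for all 3. The groups overlapped for Cdh5, the endothelial cadherin, at 101.5, 138 and 190.1 CPM in Gel and 122, 327 and 159 in Mg-ALN gel, and for Vwf at 131, 109 and 194 CPM in Gel and 129, 141 and 166 in Mg-ALN gel. Without Mg-ALN gel 2, Esam stood at 0.40 and the list's median at 0.25. The median was 0.64 after the length trend was removed and 0.87 with Mg-ALN gel 1 and Gel 3 left out. In bulk tissue, more or fewer cells of a type and more or less RNA per cell cannot be told apart, here or in the groups that follow.

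Sost was low in both groups, at 26, 5 and 5 counts in Gel and 3, 2 and 12 in Mg-ALN gel. These correspond to 1.85, 0.282 and 0.314 CPM in Gel and 0.237, 0.119 and 0.762 in Mg-ALN gel, so that only Gel 1 lay above the range of Mg-ALN gel. The log2 fold change was −1.09 (SE 0.92, edgeR adjusted p = 0.697), and it was 0.32 without Gel 1. In ALN gel Sost stood at 9.23, 4.46 and 6.93 CPM. Among the osteocyte genes 10 of 11 tested members were below 0, with a median of −0.48 that lay between −0.79 and −0.20 when any 1 library was left out. Phex, the endopeptidase whose loss causes hypophosphatemia, had 47.5, 8.58 and 7.09 CPM in Gel and 1.81, 0.655 and 5.84 in Mg-ALN gel (−2.92, SE 1.05), without overlap and with 1 Gel library far above the rest. It stood at −1.5 without that library, Gel 1. Dmp1, a mineral-regulating protein of the osteocyte matrix, overlapped widely at 251, 127 and 51.3 CPM in Gel and 127, 4.41 and 196 in Mg-ALN gel (−0.39, SE 1.12), and it was 0.29 without Gel 1.

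Sclerostin acts on Wnt signalling, and the genes of that pathway were mostly below 0. Of 16 Wnt receptors and β-catenin targets, 3 were above 0, the median was −0.52, and 3 were lower at an unadjusted p under 0.05 (3.88% of all genes). Lgr4, a receptor for R-spondins, had 40.1, 10.4 and 16.1 CPM in Gel and 4.89, 9.89 and 8.51 in Mg-ALN gel (−1.51, SE 0.52), and Lrp4, the receptor that anchors sclerostin, had 174, 67.7 and 45.5 CPM in Gel and 37.8, 32.4 and 56.3 in Mg-ALN gel (−1.18, SE 0.48). Ctnnb1, β-catenin itself, had 605, 446 and 417 CPM in Gel and 240.4, 404 and 389 in Mg-ALN gel (−0.51, SE 0.27). Gel 1 was the highest library in all 3, and without it 0 of the 16 were lower at an unadjusted edgeR p under 0.05, with Lgr4 at −0.77 and Lrp4 at −0.43. Ctnnb1 was −0.30 without Mg-ALN gel 1. Of the other secreted Wnt antagonists 3 of 8 tested were above 0 (3 lay below the filter). Wif1 had 199, 15.6 and 12.6 CPM in Gel and 12.5, 2.09 and 16.1 in Mg-ALN gel (−2.89, SE 1.17), and Sfrp2 had 9.32, 6.94 and 30.9 CPM in Gel and 138, 49.2 and 8.13 in Mg-ALN gel (2.05, SE 0.89). The groups overlapped for both, and Wif1 stood at −0.47 without Gel 1 and Sfrp2 at 0.87 without Mg-ALN gel 1.

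The genes of TGF-β signalling were followed by role, from ligands to targets. Over the 18 ligands, receptors, latency proteins and Smads, 6 were above 0, the median was −0.39, and 2 were lower at an unadjusted p under 0.05 (3.88% of all genes). Tgfb1, the main ligand in bone matrix, had 242, 249 and 202 CPM in Gel and 196, 219 and 173 in Mg-ALN gel, with overlap (−0.24, SE 0.24). The receptor Tgfbr1 had 187, 345 and 304 CPM in Gel and 114, 259.9 and 220.0 in Mg-ALN gel. Smad3, which carries the signal to the nucleus, had 91.0, 51.9 and 45.5 CPM in Gel and 35.6, 39.1 and 36.8 in Mg-ALN gel (−0.76, SE 0.26), and its partner Smad4 had 58.6, 49.2 and 49.8 CPM in Gel and 17.9, 46.0 and 35.2 in Mg-ALN gel (−0.67, SE 0.34). Neither overlapped, but Gel 1 stood out for Smad3 (−0.39 without it) and Mg-ALN gel 1 for Smad4 (−0.37 without it). Itgav, the integrin chain that releases latent TGF-β, did not overlap either (−0.66, SE 0.51), and was −0.27 without Mg-ALN gel 1. Without Mg-ALN gel 3 the median of the 18 was −0.22. After the length trend was removed it was −0.17, and 0 were lower at an unadjusted p under 0.05.

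The targets of TGF-β did not stand on one side, with 9 of 17 above 0 and a median of 0.04 (−0.17 without Mg-ALN gel 1). Ccn2, connective tissue growth factor, had 358, 337 and 595 CPM in Gel and 1071, 199 and 151 in Mg-ALN gel (log2 fold change 0.14, SE 0.79), where 1 Mg-ALN gel library lay above and the other two below all Gel libraries. It was −1.30 without Mg-ALN gel 1. Postn, periostin of healing periosteum, had 2110, 4175 and 2271 CPM in Gel and 3903, 2713 and 3417 in Mg-ALN gel (0.23, SE 0.58), with overlap. Thbs1, a thrombospondin that activates latent TGF-β, was the 1 target without overlap on the lower side, at 175, 556 and 463 CPM in Gel and 138, 118 and 111 in Mg-ALN gel (−1.70, SE 0.89). Its log2 fold change was −2.06 to −1.42 when any 1 library was left out and −1.52 after the length trend was removed.

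Collagens and their processing enzymes gave no common direction. Col1a1, the main chain of type I collagen, took 9.78%, 4.26% and 5.63% of all counts in Gel and 2.45%, 3.42% and 2.80% in Mg-ALN gel (exact permutation test, two-sided p = 0.1, the smallest 3 against 3 can give). The plan set this test for the mitochondrial and skeletal muscle shares and not for Col1a1. For the muscle share it gave a two-sided p of 0.7. The mitochondrial and hemoglobin shares also gave larger p-values than Col1a1. On the CPM scale Col1a1 had 97450, 38610 and 47260 in Gel and 26550, 30830 and 33370 in Mg-ALN gel. Its log2 fold change was −1.01 (SE 0.64) with an edgeR adjusted p of 0.612, and −0.51 without Gel 1. The groups did not overlap, and the Mg-ALN gel libraries were closer together. Col3a1, of the type III collagen of early callus and scar, had 6185, 15330 and 15310 CPM in Gel and 18080, 17660 and 12290 in Mg-ALN gel (0.38, SE 0.88), with overlap. Over 16 fibrillar and fibrosis-associated collagens 9 were above 0, and the median was 0.25 (−0.07 to 0.40 with 1 library left out). Of the 16, 0 had an unadjusted edgeR p under 0.05 (9.31% of all genes). Lower without overlap were 3 (8.56% of all genes), namely Col1a1, Col8a1 (−1.49) and Col5a2 (−0.34). The collagen folding and crosslinking list had 12 of 19 above 0 (median 0.09, and −0.10 without Mg-ALN gel 1), and the small leucine-rich proteoglycans, which set the width of collagen fibrils, 7 of 9 (median 0.28). The matrix proteases and their inhibitors had 8 of 17 above 0 (median −0.10).

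Genes of myofibroblasts, smooth muscle and pericytes had no common direction. Acta2, the smooth muscle actin that marks myofibroblasts, had 116, 432 and 378 CPM in Gel and 762, 332 and 194 in Mg-ALN gel (log2 fold change 0.48, SE 0.86), and it was −0.23 without Mg-ALN gel 1. Tagln, an actin-binding protein of the same cells, had 172, 540.1 and 524 CPM in Gel and 1519, 518 and 355 in Mg-ALN gel, with the same library on top. Of the 15 members 8 were above 0, with a median of 0.32 that became −0.23 without Mg-ALN gel 1. Mcam, an adhesion molecule of pericytes and endothelium, did not overlap, at 121, 167 and 169 CPM in Gel and 169, 358 and 246 in Mg-ALN gel (0.76, SE 0.48), though Gel 3 and Mg-ALN gel 1 nearly met, and it was 0.41 without Mg-ALN gel 2. Pdgfra, a growth factor receptor of fibroblasts, was the member lower without overlap, at 182, 195 and 188 CPM in Gel and 127, 129 and 163 in Mg-ALN gel.

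Osteoblast and mineralization genes were below 0 for 18 of 19 members, with a median log2 fold change of −1.0, and 3 were lower at an unadjusted p under 0.05 (3.88% of all genes). Runx2, the transcription factor that sets the osteoblast lineage, had 144, 77.4 and 73.7 CPM in Gel and 53.7, 53.4 and 91.3 in Mg-ALN gel (−0.57, SE 0.34). Alpl, the phosphatase of mineralizing cells, had 1069, 304 and 195 CPM in Gel and 254, 98.9 and 242 in Mg-ALN gel (−1.40, SE 0.64), and Bglap, osteocalcin, had 2295, 234 and 185 CPM in Gel and 855, 3.46 and 395 in Mg-ALN gel (−1.11, SE 1.42). The groups overlapped in all 3, Gel 1 was the highest, and Mg-ALN gel 2 held hardly any Bglap. Dlx3, a homeobox factor of osteoblasts, had 43.8, 4.46 and 10.2 CPM in Gel and 3.71, 1.31 and 5.27 in Mg-ALN gel (−2.50, SE 0.81). Creb3l1, a factor that drives collagen secretion, was the 1 member without overlap, at 256, 201 and 200.5 CPM in Gel and 173, 168 and 161 in Mg-ALN gel (−0.39, SE 0.30). Without Gel 1 the median of the list was −0.15, 7 members were above 0 and 0 were lower at an unadjusted edgeR p under 0.05. Runx2 was then −0.19, Alpl −0.34, Dlx3 −1.10 and Bglap 0.99.

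Cartilage genes, which mark the soft callus, were below 0 for 14 of 15 tested members, with a median of −1.62 and 3 further members below the filter. The median was −2.63 without Mg-ALN gel 3 and −1.13 without Gel 3. In a fit of the 6 libraries of the contrast alone, over the members tested there, it was −1.1. Col2a1, the collagen of cartilage, had 46.8, 0.113 and 305 CPM in Gel and 0.946, 0.298 and 0.953 in Mg-ALN gel, so that Gel 2 lay below all Mg-ALN gel libraries and Gel 1 and 3 far above them. DESeq2 called Col2a1 with an adjusted p of 0.00564, and edgeR's adjusted p was 0.53 (log2 fold change −7.33, SE 1.94, and −7.96 to −4.98 with 1 library left out). Hapln1, the link protein of cartilage, had 13.5, 2.71 and 37.2 CPM in Gel and 4.57, 0.774 and 1.65 in Mg-ALN gel (−2.95, SE 0.99, and −1.79 without Gel 3). Col11a1, also made by osteoblasts, was the member without overlap, at 1730, 734 and 695.5 CPM in Gel and 611, 476 and 611 in Mg-ALN gel (−0.90, SE 0.41). It stood at −0.34 without Gel 1 and at −0.41 after the length trend was removed. The Gel libraries differed widely among themselves in Col2a1 and Hapln1.

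Osteoclast genes showed no common difference from Gel. Of 15 genes of the resorption machinery 6 were above 0, and the median was −0.06. Of the 15, 0 had an unadjusted edgeR p under 0.05 (9.31% of all genes). Acp5, the tartrate-resistant acid phosphatase, had 6394, 889 and 415 CPM in Gel and 959, 1366 and 2017 in Mg-ALN gel (−0.83, SE 0.88), where 1 Gel library lay above and the other two below all Mg-ALN gel libraries. It was 1.15 without Gel 1. Ctsk, the protease that degrades bone collagen, had 8529, 2416 and 1261 CPM in Gel and 2013, 7086 and 7592 in Mg-ALN gel (0.45, SE 0.75), and 1.60 without Gel 1. Calcr, the calcitonin receptor, had 6.98, 1.35 and 2.57 CPM in Gel and 1.18, 0.477 and 2.99 in Mg-ALN gel (−1.22, SE 0.72, and −0.34 without Gel 1). The list's median was 0.45 without Gel 1 and −0.39 without Gel 3. Among 14 tested genes of osteoclast differentiation 7 were above 0 (median 0.03). Tnfrsf11a, the RANK receptor, had 50.8, 23.9 and 16.3 CPM in Gel and 24.3, 31.5 and 46.5 in Mg-ALN gel (0.17, SE 0.41), and Traf6, the adaptor that carries its signal, had 8.76, 8.69 and 9.22 CPM in Gel and 3.55, 6.61 and 5.27 in Mg-ALN gel (−0.79, SE 0.34), without overlap.

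Of the 15 magnesium channels and transporters 5 were above 0, the median was −0.20, and 2 were lower and 0 higher at an unadjusted p under 0.05 (of all genes, 3.88% and 5.43%). Trpm7, the channel with a kinase domain through which magnesium enters most cells, had 65.0, 47.1 and 58.9 CPM in Gel and 10.6, 34.8 and 39.0 in Mg-ALN gel. Both groups lay apart, with Mg-ALN gel 1 far below the rest, and the log2 fold change was −1.02 (SE 0.41, edgeR adjusted p = 0.53) and −0.63 without that library. Cnnm3, of a family of magnesium efflux regulators, had 35.2, 30.6 and 37.1 CPM in Gel and 23.9, 22.0 and 25.1 in Mg-ALN gel (−0.54, SE 0.17). Magt1, of the oligosaccharyltransferase complex, had 99.4, 97.3 and 89.5 CPM in Gel and 72.5, 87.7 and 88.2 in Mg-ALN gel (−0.20, SE 0.19), a narrow gap without overlap. Trpm7 and Cnnm3 have long transcripts, of 5644 and 4107 bases. After the length trend was removed Trpm7 stood at −0.78, Cnnm3 at −0.31 and Magt1 at 0.04, and the median of the list at −0.03. With no such correction it was −0.47 without Mg-ALN gel 2 and −0.07 without Gel 2.

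Neutrophil granule and precursor genes were above 0 for 13 of 14 tested members, with a median log2 fold change of 1.60, 2 higher at an unadjusted p under 0.05 (5.43% of all genes) and 0 without overlap (18.3% of all genes). S100a8, a subunit of calprotectin, had 35.1, 272 and 152 CPM in Gel and 3422, 174 and 665 in Mg-ALN gel (3.22, SE 1.17). S100a9, the other subunit, followed it at 56.5, 609.6 and 342 CPM in Gel and 4527, 339 and 1015 in Mg-ALN gel (2.54, SE 1.15). Camp, the cathelicidin of neutrophil granules, had 9.40, 5.53 and 7.65 CPM in Gel and 116, 1.19 and 104.7 in Mg-ALN gel (3.30, SE 1.24). Mg-ALN gel 1 and 3 were high and Mg-ALN gel 2 was within or below the range of Gel, and without Mg-ALN gel 1 the median was 1.04, with S100a8 at 1.46 and S100a9 at 1.01. Lyz2, lysozyme of macrophages and neutrophils, had 655, 8040 and 3713 CPM in Gel and 22210, 3302 and 4348 in Mg-ALN gel (1.27, SE 1.07), and it was −0.11 without Mg-ALN gel 1. Macrophage genes had 6 of 14 tested members above 0 (median −0.15).

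Single inflammatory genes differed without overlap, as 18.3% of all genes did, while their lists did not lean one way. Higher without overlap were 1 of 16 cytokine genes, 1 of 19 chemokine genes, 1 of 18 interferon-induced genes and 1 of 13 immediate early genes, against 9.76% of all genes. In the chemokine list 1 member was lower without overlap (8.56% of all genes). Of the 16 cytokine genes 0 had an unadjusted edgeR p under 0.05 (9.31% of all genes). Il6, a cytokine of early healing, had 1.495, 22.8 and 15.8 CPM in Gel and 62.1, 46.8 and 27.4 in Mg-ALN gel (1.76, SE 1.16), and Ccl9, a chemokine made by macrophages and osteoclasts, had 35.2, 36.5 and 32.2 CPM in Gel and 90.0, 69.9 and 86.9 in Mg-ALN gel (1.25, SE 0.38). The Gel values of Ccl9 were tight, and its log2 fold change was 1.18 to 1.33 with any 1 library left out. Cytokine genes had 7 of 16 above 0 (median −0.11), and chemokines and their receptors 7 of 19 (median −0.12). The local acute-phase genes had 4 of 8 above 0 (median 0.19) and the interferon-induced genes 10 of 18 (median 0.04). Oas1k, of a family of close copies between which reads may be shared, had 12.2, 13.2 and 17.3 CPM in Gel and 24.0, 25.6 and 27.8 in Mg-ALN gel (0.86, SE 0.26). Ier2, an immediate early gene, had 57.9, 93.1 and 106.9 CPM in Gel and 140, 142 and 140 in Mg-ALN gel (0.71, SE 0.23), and 9 of 13 immediate early genes were above 0 (median 0.26).

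**Figure D4:**
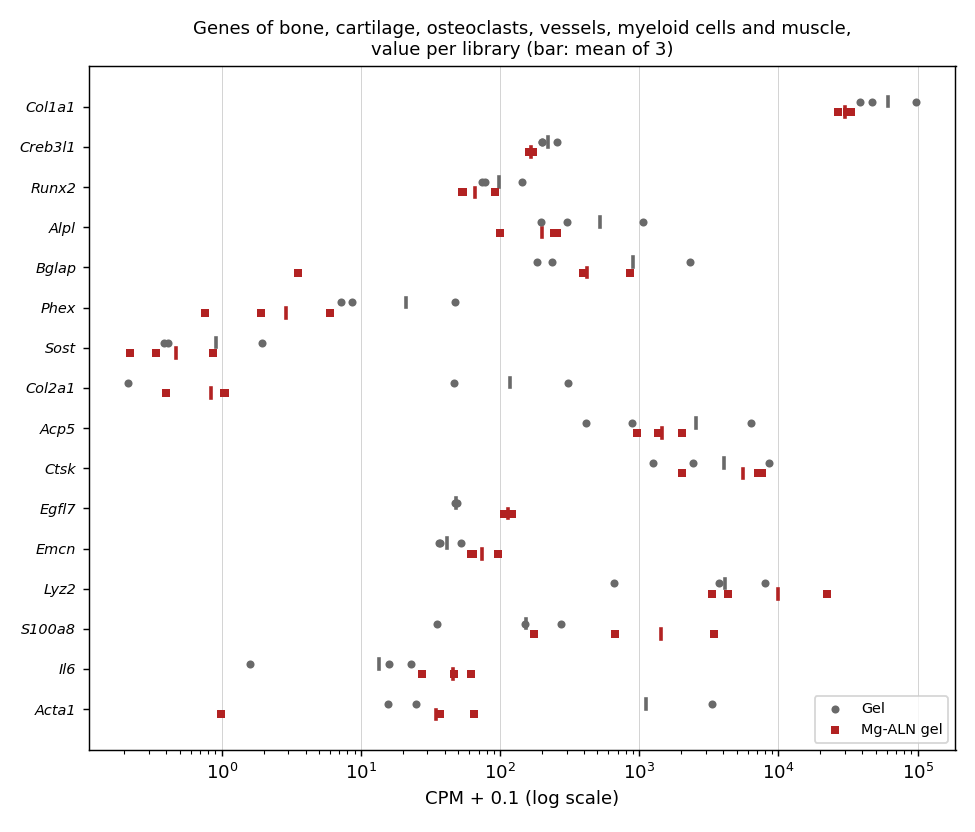
CPM + 0.1 (log axis) of genes that mark bone, cartilage, osteoclast, vessel, myeloid and muscle cells in each of the 6 libraries. The spread within Gel is wide for Bglap, Col2a1, Acp5 and Acta1, and Mg-ALN gel 1 stands highest for Lyz2, S100a8 and Il6.

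Lymphoid genes were unevenly spread over the libraries. Cd4, of helper T cells and rat macrophages, had 121, 103 and 100.1 CPM in Gel and 48.2, 69.8 and 64.2 in Mg-ALN gel (−0.83, SE 0.25), without overlap, while 7 of 12 tested T and NK cell genes were above 0 (median 0.15). B-lineage and plasma cell genes were below 0 for 11 of 13 tested members (median −1.66), and the median was 0.06 without Gel 1. In a fit of the 6 libraries of the contrast alone, over the members tested there, it was −0.94. Irf4, a factor of plasma cells, had 23.9, 6.38 and 9.72 CPM in Gel and 0.946, 2.03 and 5.59 in Mg-ALN gel (−2.21, SE 0.79, and −1.49 without Gel 1), without overlap. Erythroid genes were above 0 for 11 of 13 (median 0.69), with a median of −0.11 without Mg-ALN gel 3 and 2.96 without Gel 1. Skeletal muscle genes were below 0 for 12 of 12 (median −4.34), with a median of 0.63 without Gel 3, the library in which Acta1, skeletal muscle actin, had 3314 CPM against 15.6 and 24.8 in the other Gel libraries. The marrow adipocyte genes had 4 of 8 tested members above 0 (median 0.08), with 6 below the filter.

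Ribosomal and selenoprotein genes were mostly above 0, among them short genes such as Rps27a (471 bases) and Selenow (267 bases). Cytosolic ribosomal proteins were above 0 for 17 of 18 members, with a median of 0.65 and 5 higher at an unadjusted p under 0.05 (5.43% of all genes). Rps27a, a fusion of ubiquitin and a ribosomal protein, had 311, 223 and 193 CPM in Gel and 1143, 373 and 531 in Mg-ALN gel (1.49, SE 0.45, and 0.90 without Mg-ALN gel 1), with Mg-ALN gel 1 highest. Its symbol stands at more than 1 locus of the deposited table, and ribosomal genes have many pseudogene copies that can share reads. After the length trend was removed the median of the ribosomal list was 0.31, it was 0.29 without Mg-ALN gel 1, and with Mg-ALN gel 1 and Gel 3 left out it was 0.10. Selenoproteins were above 0 for 10 of 14 tested members, with a median of 0.57, 5 higher and 1 lower at an unadjusted p under 0.05 (of all genes, 5.43% and 3.88%). Their median was 0.23 without Mg-ALN gel 1 and 0.14 with Mg-ALN gel 1 and Gel 3 left out.

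Selenok, of the endoplasmic reticulum, had 41.9, 52.0 and 37.4 CPM in Gel and 131, 65.8 and 69.7 in Mg-ALN gel (1.02, SE 0.32), and Selenoh, a nuclear redox protein, 56.1, 48.8 and 40.9 CPM in Gel and 125, 81.2 and 58.7 in Mg-ALN gel (0.86, SE 0.28). Selenow, a small thioredoxin-like protein, had 47.4, 41.2 and 42.9 CPM in Gel and 117, 52.7 and 58.9 in Mg-ALN gel (0.80, SE 0.57). Mg-ALN gel 1 was the highest in all 3 and none overlapped, and without that library they stood at 0.63, 0.53 and 0.35. Selenop, the selenium carrier of plasma, lay on the other side at 287, 438 and 478 CPM in Gel and 213, 175 and 258 in Mg-ALN gel (−0.90, SE 0.25), without overlap. It stood at −1.31 after the length trend was removed, whereas the median of the selenoproteins came down to 0.26, and it was −1.09 to −0.78 when any 1 library was left out.

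Genes of the respiratory chain encoded in the nucleus were above 0 for 15 of 19 members (median 0.21, 0.09 without Gel 3, 0.37 without Gel 1, and 0.05 after the length trend was removed). Of the 19, 2 were higher (5.43% of all genes) and 1 lower (3.88%) at an unadjusted p under 0.05. The 13 mitochondrially encoded genes were all above 0 in this contrast (median 1.19), 0 of them at an unadjusted edgeR p under 0.05 (9.31% of all genes). Their median was 0.26 without Mg-ALN gel 3 and 2.17 without Gel 1. Cell cycle genes were above 0 for 14 of 16 (median 0.35, 0.16 without Gel 2 and 0.67 without Gel 1). Of these 16, 0 had an unadjusted edgeR p under 0.05 (9.31% of all genes). Hypoxia and glycolysis genes were above 0 for 11 of 16 (median 0.15). ATF4 targets had 7 of 16 above 0 (median −0.08).

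Among growth factor systems, the insulin-like growth factor genes were evenly divided, with 6 of 12 above 0 (median 0.02, and −0.16 without Mg-ALN gel 1). Pappa1, the protease that frees IGF from its binding proteins, had 11.5, 9.93 and 4.89 CPM in Gel and 0.788, 2.50 and 2.92 in Mg-ALN gel (−2.07, SE 0.63), and Igfbp7, a binding protein of vessels and stroma, had 344, 496 and 461 CPM in Gel and 1159, 768 and 619 in Mg-ALN gel (0.97, SE 0.44). Neither overlapped. Of 18 tested BMP genes 5 were above 0 (median −0.29, and −0.13 without Gel 3). Bmp3, an inhibitor of bone formation made by osteoblasts, had 74.8, 12.4 and 16.4 CPM in Gel and 7.41, 0.179 and 9.15 in Mg-ALN gel (−2.63, SE 1.08), without overlap, and −1.37 without Gel 1. Semaphorin, plexin and ephrin genes, which couple osteoclasts, osteoblasts, nerves and vessels, had 3 of 17 above 0 (median −0.51, −0.30 without Gel 1, and −0.17 after the length trend was removed). Sema4d, an osteoclast-derived inhibitor of osteoblasts, had 68.5, 67.4 and 51.2 CPM in Gel and 14.5, 45.5 and 39.2 in Mg-ALN gel (−0.91, SE 0.37), without overlap, and was −0.56 without Mg-ALN gel 1. Nerve and Schwann cell genes had 8 of 10 tested members above 0 (median 0.15), with 5 below the filter.

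**Figure D5:**
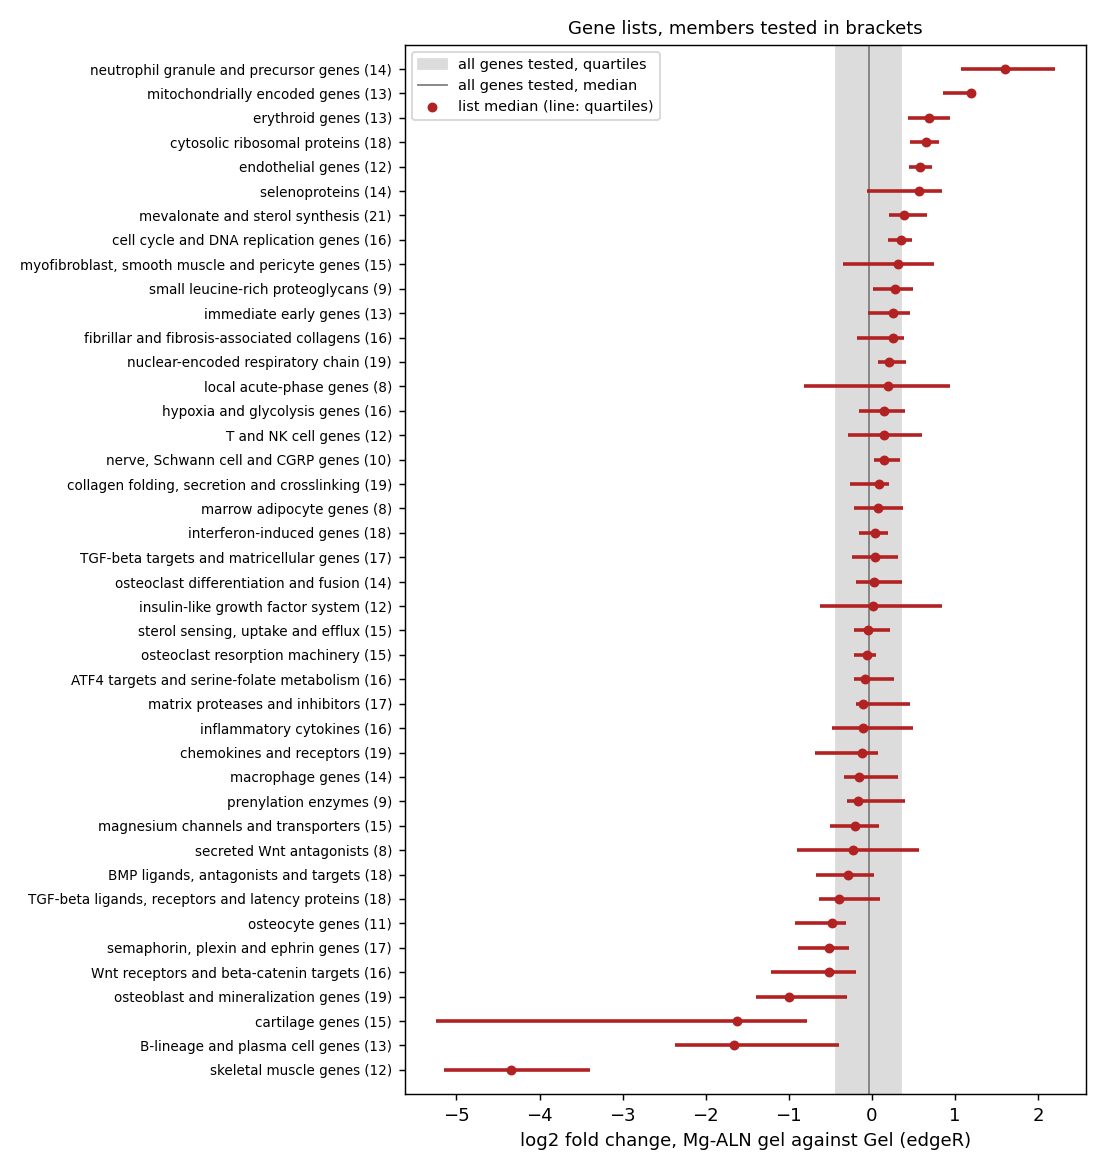
Median log2 fold change (Mg-ALN gel minus Gel) of each gene list with its quartiles, with a grey band for the quartiles of all genes tested (−0.43 to 0.35). Sterol synthesis (0.39), endothelial (0.58) and ribosomal (0.65) lists lie on the higher side, and osteoblast (−1.0), cartilage (−1.62) and muscle (−4.34) lists on the lower side.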

How the data were processed

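Poly-A RNA sequencing gave 9 libraries in 3 groups of 3. The authors deposited a table of read counts per gene, used here as given. Per the submitters' processing notes, the tools included edgeR 3.22.5, DESeq2 1.20.0, featureCounts 1.5.0-p3, HISAT2 2.0.5, fastp and StringTie 1.3.3b. The genome build and the strand setting are not given in the sources used here. Reads of overlapping genes or close copies therefore cannot be assigned with certainty. Gene lengths were taken from the deposited table. The FPKM files were not used.

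Of 35360 genes, 15460 passed edgeR's filterByExpr over the 9 libraries. Counts were scaled by TMM and fitted with edgeR 4.0.16 (glmQLFit, glmQLFTest) in R 4.3.3 with all 3 groups in the fit, and Benjamini-Hochberg adjusted p-values were held to 0.05. The alternatives were DESeq2 1.42.0, limma-voom with quality weights (limma 3.58.1), RLE scaling, robust dispersion, no filter on low counts, a fit of the 6 libraries alone, removal of mitochondrial genes, the mitochondrial share as a covariate, the replicate number as a block and leaving out each library. Removing the length trend and leaving out Mg-ALN gel 1 and Gel 3 were added after seeing the data. The common biological coefficient of variation was 51.4%. Between any pair of libraries, chi-square divided by its degrees of freedom was at least 72.3, far above sampling noise. The deviations gave no sign that the same replicate number pairs the samples (r −0.0767, −0.0452 and −0.199, against −0.0786 to 0.175 for unlike numbers). With 3 libraries a group these values cannot exclude a pairing, and the labels do not state one. The statistics were tested on simulated data.

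The members and the 42 gene lists (664 entries, 17 of them unmatched in the table) were chosen with earlier results of these data known. The text names a fixed set of genes, the 12 higher and 12 lower protein-coding genes with the smallest edgeR p, at least 2 CPM on average in the higher group and no overlap, up to 8 genes called by an alternative tool, and up to 4 members of each list by p with those that define it. Some genes that this rule picks are not reported here. Other genes named were chosen after their values were seen. Promoter windows came from RefSeq (GRCr8), while gene positions are those of the deposited annotation. The 6 libraries of the contrast held 13388689 to 18763270 counts, and Sost had 2 to 26 counts in each.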

Additional observations from a re-analysis of the deposited data

How the results depend on the processing

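edgeR called 0 genes under each of its alternatives, and limma-voom called 0 as well, while DESeq2 called 51 (24 higher, 27 lower). The lowest adjusted p ranged from 0.244 to 0.838 when any 1 library was left out, and it was 0.755 without the length trend and 0.995 with Mg-ALN gel 1 and Gel 3 left out. Counts of genes higher at an unadjusted p under 0.05 were 839 in the reported fit, 1381 by limma-voom, 510 without the length trend, 216 with both libraries left out, 549 without Gel 2, 292 without Gel 3 and 489 without Mg-ALN gel 1. Genes lower at that p numbered 600, and 982 with no filter on low counts. With the replicate number as a block, a pairing for which the deviations gave no sign, 0 genes were called, the lowest adjusted p was 0.381, and 1022 genes were higher and 720 lower at an unadjusted p under 0.05.

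Of 91 genes named with a fold change, 81 kept their sign in all 20 alternatives. Many of them were chosen for a small p or for no overlap in these data, so this count follows largely from the choice. With 1 library left out, the log2 fold change ranged from −2.16 to 0.32 for Sost, −1.13 to 0.29 for Dmp1, −2.18 to 0.99 for Bglap, −1.30 to 0.56 for Ccn2, −0.23 to 0.82 for Acta2, −1.33 to 1.15 for Acp5, −0.14 to 0.76 for Tnfrsf11a and −0.11 to 2.16 for Lyz2. The sign also changed by limma-voom for Ccn2 (−1.08), Acta2 (−0.35) and Acp5 (0.99), with the block for Ccn2 (−0.05) and Acp5 (0.00), with both libraries left out for Ccn2 (−1.02), Postn (−0.08), Acta2 (−0.12) and Lyz2 (−0.25), with the mitochondrial covariate for Tnfrsf11a (−0.05) and without the length trend for Magt1 (0.04). The cause was not tested. Sost had 2 to 26 counts in each of the 6 libraries of the contrast.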
